A study of Mus musculus with 10 samples.

Results

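Most of the mouse genome becomes methylated at CpG sites in the fetal male germ line, while CpG-rich promoters stay free of methylation. The 2242 regions described here were low in methylation in prospermatogonia, the germ cells of the fetal testis, although they lay far from annotated promoters. A region was a run of at least 3 CpGs spaced at most 100 b apart, with both strands of a CpG counted once. The 2242 were chosen by their measured level: autosomal runs over 5 kb from every transcription start of GENCODE release M21, with a mean methylation level over the 10 samples of at most 10%. They made up 3.61% of the 62180 autosomal runs over 5 kb from a start and 8.84% of the 25359 autosomal runs with so low a level. In all, 119729 runs lay on chromosomes 1 to 19, X and Y. Because the level chose them, their low level is a description, and nothing is tested on it.

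The samples were 5 control and 5 arsenic pools of F1 prospermatogonia. All dams were C3H/HeN mice drinking tap water. For the arsenic group the water held sodium arsenite from mid gestation until the testes were taken near the end of gestation. Each pool combined testes of many embryos and was enriched for germ cells by a magnetic sort with an antibody to Thy1.2, so a pool is the replicate and other testis cells may remain in it. The files hold methylation counts only, so defining markers of the cell type were not read here.

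Unmethylated DNA outside promoters is known from distal enhancers, where bound transcription factors keep methylation low, from CpG islands with no annotated gene ("orphan" islands), and from short genes read by RNA polymerase III, such as tRNA genes. Regions around developmental regulators often stay unmethylated over long stretches that are held by Polycomb proteins. Reduced representation bisulfite sequencing (RRBS), the assay used, reads only CpG-rich restriction fragments, so a region here is the sequenced part of an element and not its full extent.

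Sequences of 5 of the regions are shown as examples and do not stand for the whole set. They include a tRNA gene cluster, a large CpG-rich region near a neurogenic gene and a region deep in an intron. The other 2 had small p-values between the groups. Each is from the plus strand of GRCm38 (mm10), with CpGs in capitals. Regions over 300 b are shown by their middle 300 b, and regions under 100 b with flanking bases up to 100 b.
By Dhx37, chr5:125405466-125405765, holding the tRNA gene n-TDgtc15: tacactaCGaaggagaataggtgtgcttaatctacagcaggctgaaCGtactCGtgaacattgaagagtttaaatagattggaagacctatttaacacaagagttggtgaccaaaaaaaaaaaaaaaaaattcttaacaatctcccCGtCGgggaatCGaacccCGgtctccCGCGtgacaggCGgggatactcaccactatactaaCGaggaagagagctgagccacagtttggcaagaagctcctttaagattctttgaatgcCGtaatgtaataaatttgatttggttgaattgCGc
By Neurog1, chr13:56222148-56222447: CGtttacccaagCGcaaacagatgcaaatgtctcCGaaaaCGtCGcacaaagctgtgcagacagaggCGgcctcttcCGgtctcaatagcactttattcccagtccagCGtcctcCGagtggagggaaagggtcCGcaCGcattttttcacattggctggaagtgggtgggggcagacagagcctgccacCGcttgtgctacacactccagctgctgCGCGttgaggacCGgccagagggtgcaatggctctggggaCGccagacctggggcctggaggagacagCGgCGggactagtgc
In an intron of Zfhx3, chr8:108241316-108241615: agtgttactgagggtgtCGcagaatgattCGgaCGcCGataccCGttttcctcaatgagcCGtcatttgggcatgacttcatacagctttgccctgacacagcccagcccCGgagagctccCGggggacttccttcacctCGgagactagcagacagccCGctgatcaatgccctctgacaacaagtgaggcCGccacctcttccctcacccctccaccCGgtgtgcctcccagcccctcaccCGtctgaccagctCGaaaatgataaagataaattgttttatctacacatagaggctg
By Btg2, chr1:134063635-134063734: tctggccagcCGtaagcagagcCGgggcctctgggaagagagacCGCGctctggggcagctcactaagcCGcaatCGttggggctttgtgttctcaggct
By Rpl31-ps16, chr17:85485416-85485515: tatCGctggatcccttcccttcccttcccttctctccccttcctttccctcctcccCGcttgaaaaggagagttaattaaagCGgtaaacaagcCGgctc
The Dhx37 stretch held 13 CpGs and the Neurog1 stretch 18 in 300 b, and the stretch by Rpl31-ps16 held 4 in 100 b.

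Unmethylated regions far from starts were short as read, with a median of 7 CpGs (quartiles 5 and 11) and 143 b. Unmethylated regions within 1 kb of a start numbered 20557 and had a median of 11 CpGs. The other 59938 autosomal runs over 5 kb from a start had a median of 4 CpGs. The median level was 2.97% (quartiles 1.5 and 5.84%), beside 1.17% in the promoter-proximal regions and 73.0% in the other distal runs. Of the 2242 regions, 795 (35.5%) were at 2% or less, 748 at over 2 to 5%, and 699 at over 5%.

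A region had a median of 351 reads summed over its CpGs in a sample (quartiles 182 and 662). At that depth, 11 methylated reads give a level of 3.13% with a 95% Wilson interval of 1.76 to 5.52%, and a count of 0 allows a level of up to 0.855%. Intervals and limits cover counting error only, since reads without molecular identifiers are not independent molecules. They also leave out incomplete bisulfite conversion, which reads as methylation. The paper reports a conversion rate that falls short of complete by a few percent, about the size of the levels here. Levels were not corrected for it, and its part in small differences was not tested. Of 22420 region values, 2205 had no methylated read, and 3 regions had none in any of the 10 pools. In 1556 regions (69.4%) every pool was at 10% or less, 58 exceeded 20% in 1 or more pools, and 0 exceeded 50%.

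Pools were close to each other in the mean level over the 2242 regions. Control pools had 3.83, 3.61, 3.78, 3.93 and 3.89%, and arsenic pools had 3.43, 3.52, 3.97, 4.07 and 4.05%. The groups overlapped, and the 2 lowest values were both in the arsenic group. Group means were 3.81% ± 0.126 and 3.81% ± 0.310 (SD, n = 5 each), a difference of -0.0021 points, which is smaller than the spread between pools. Arsenic pool 1 stood apart over all 119729 regions, with a mean level of 49.3% against 52.7 to 55.1% in the other 9 pools, and it also had the most reads on the 2242 regions. Without it the difference was 0.0929 points. The arsenic libraries were deeper, with 56551174 to 66570870 CpG calls against 44207245 to 60504881, and 139 to 242 of the regions had no methylated read there against 204 to 319 in the control pools. The paper left out a further arsenic sample of prospermatogonia for its lower read number. The part of depth in these values was not tested.

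**Figure D1:**
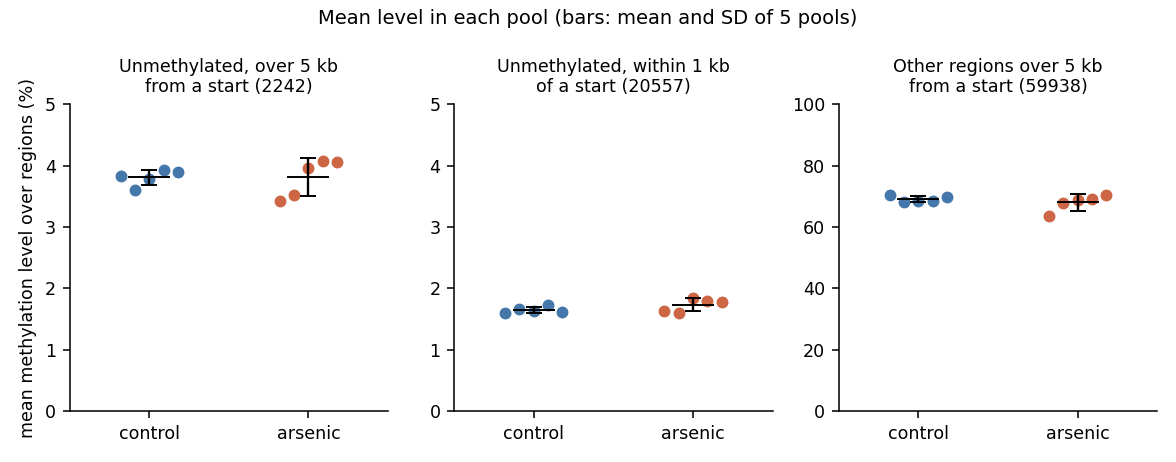
Mean methylation level over regions (%, y axis) in each of the 5 control and 5 arsenic pools (points), with the mean and SD of the 5 pools, for the unmethylated regions over 5 kb from a start, those within 1 kb of a start, and the other distal regions (y axis to 100% in the last panel). The first set lies between 3.43 and 4.07% in every pool, above the promoter-proximal set and far below the 63.5 to 70.6% of the other distal regions.

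Levels were lower in regions with more CpGs. Regions with 3 to 5 CpGs had a median level of 4.00% (799 regions), those with 6 to 10 CpGs 3.16% (787), those with 11 to 20 CpGs 1.95% (499) and those with over 20 CpGs 1.36% (157). Across the 2242 regions the level was negatively related to the ratio of observed to expected CpGs in the surrounding 500 b (Pearson r = -0.441, Spearman rho = -0.490) and hardly to reads per CpG (r = 0.0418, rho = 0.0544). These are descriptions across regions of the same libraries and not across replicates. Outer CpGs were also higher than inner ones. In the 1240 regions with 7 or more CpGs, the outermost CpGs averaged 5.96% (5.26 to 6.63% over the pools) and the inner ones 2.61% (2.41 to 2.90%). The 2 ranges did not overlap.

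**Figure D2:**
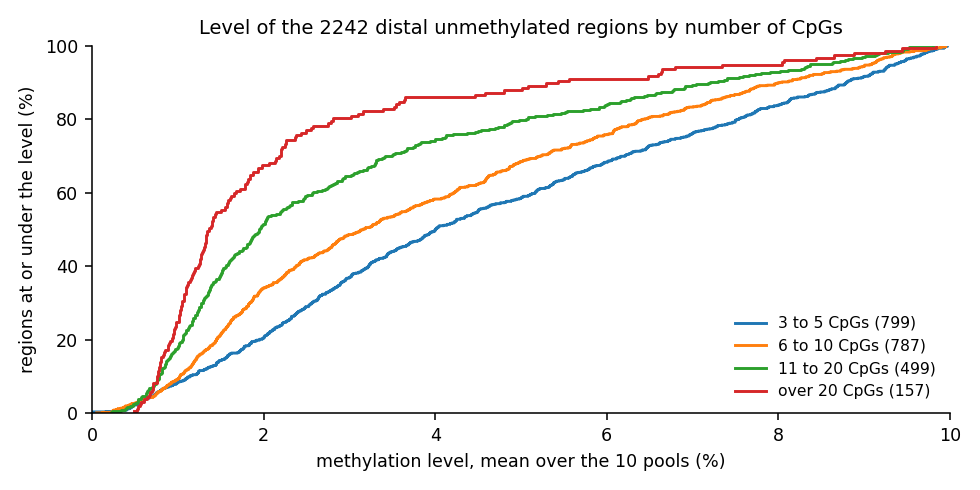
Cumulative share of regions (%, y axis) at or under a methylation level (mean over the 10 pools, %, x axis) for the unmethylated distal regions split by their number of CpGs. The curve for over 20 CpGs rises first, with 67.5% of those 157 regions at 2% or less, and that for 3 to 5 CpGs rises last, with 20.5% of 799.

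Methylation was higher outside the regions, within 1000 to 2000 b of their edges. CpGs inside had a mean of 3.53% ± 0.0948 in the control pools and 3.62% ± 0.310 in the arsenic pools (SD, n = 5 each). CpGs 100 to 250 b from the edge had 17.4% ± 0.818 in control pools, those 500 to 1000 b away 36.7% ± 0.491, and those 1000 to 2000 b away 49% ± 0.609. Promoter-proximal regions started lower, with 10.7% ± 0.145 at 100 to 250 b and 40.9% ± 0.575 at 1000 to 2000 b. Beyond that the order reversed: at 5000 to 10000 b the CpGs around the distal regions averaged 29.9% ± 0.436 and those around promoter-proximal regions 61.6% ± 0.868. CpGs within 10000 b of a region were counted wherever they lay, promoters included. Since a distal region has no start within 5 kb but 825 of the 2242 have one at 5 to 10 kb, the last bin can hold promoter CpGs. Its median CpG was at 6.0%. Arsenic pools had like values in every bin, such as 36.9% ± 2.94 at 500 to 1000 b, where arsenic pool 1 was lowest at 32.4%.

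**Figure D3:**
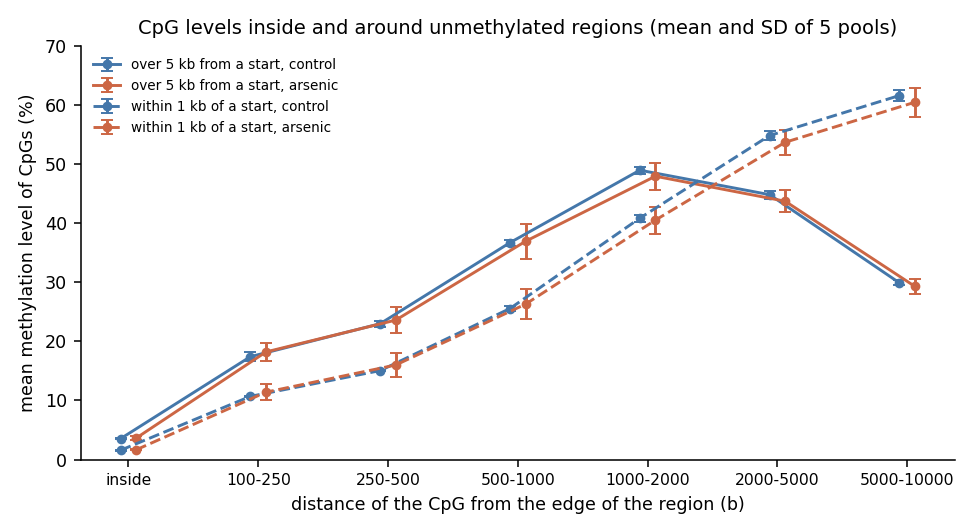
Mean methylation level of CpGs (%, y axis) inside unmethylated regions and in bins of distance from their edge (b, x axis), as mean and SD of the 5 control (blue) and 5 arsenic (orange) pools. Solid lines are regions over 5 kb from a start and dashed lines those within 1 kb; the solid lines climb from under 4% inside to about 49% at 1000 to 2000 b and then decline, while the dashed lines go on rising.

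By position, 1507 of the 2242 regions (67.2%) were intergenic and 497 (22.2%) intronic. A further 177 overlapped a coding exon, 35 an untranslated region and 26 another exon. Among the other distal runs 49.7% were intergenic and 39.7% intronic. The nearest start was 13228 b away at the median, and for 45 regions it was over 100 kb away. The regions fell into 1700 loci when those within 5 kb were joined, of which 1314 held a single region. They were GC-rich, with a median of 55.2% G and C in 500 b against 48.8% in the other distal runs and 62.0% in promoter-proximal regions. CpG-island-like windows (500 b at the region's centre with at least 50% G and C and an observed to expected CpG ratio of at least 0.6) were found at 600 of the regions (26.8%), at 2.83% of the other distal runs and at 71.5% of promoter-proximal regions. Repeats were rare: 38 regions (1.70%) were over 50% soft-masked, the mark of repeats of any kind in the reference, against 27.1% of the other distal runs. Such shares describe where the regions lie and were not tested.

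The name "far from known promoters" holds for GENCODE and only in part for RefSeq. A RefSeq transcript start lay within 1 kb of 246 regions (11%), against 2.15% of the other distal runs. For 220 of them a start of a predicted model was that near, and for 39 a curated one. A RefSeq start was within 5 kb of 489 regions, which leaves 1753 over 5 kb from the starts of both annotations. The 1753 had a median level of 3.22%, near the 2.97% of the whole.

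Motif content was read in the 300 b around each region's centre, on both strands. The GC box GGGCGG, the site of Sp and Klf factors, occurred in 31.9% of the regions, in 8.87% of the other distal runs and in 50.8% of promoter-proximal regions. The CTCF core CNAGGNGGC occurred in 11.1%, 4.54% and 11.7%. The 2 motifs differ in letters but can overlap in GC-rich DNA. The YY1 motif AAGATGGCG was in 0.178% of the regions and 2.17% of the other distal runs. Other motifs read differed little or were rare. The ETS motif CCGGAAG was in 8.88% and 9.01%, and the E-box CACGTG in 6.02% and 5.38%. The CRE motif TGACGTCA was in 0.714% and 0.280%, and the NRF1 core CGCATGCG in 0.803% and 0.18%. A match to these letters is not a bound site.

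Of the annotations compared, tRNA genes had the highest share of unmethylated regions. Of 56 distal runs within 200 b of a tRNA gene, 46 (82.1%) were at 10% or less, against 3.61% of all distal runs. Among runs without a CpG-island-like window it was 36 of 43 (83.7%) against 2.74%. The 46 regions lay by 48 of the 386 autosomal tRNA genes, and 20 of them were on chromosome 13 in the histone and tRNA gene cluster between 21 and 24 Mb. Their levels ran from 0.225 to 8.79%, and their G and C content was low, with a median of 46.1%. Some tRNA genes are near-identical copies, and 24 of the 2242 regions shared a run of 40 bases with another region (10 groups of copies), among them several tRNA regions, so reads could be split or misassigned between copies. The region with the most CpGs was of this kind. It lay at chr5:125404915-125406316, in intergenic DNA 9581 b downstream of the start of Dhx37, and held 58 CpGs and the tRNA genes n-TDgtc15 and n-TFgaa7, for aspartate and phenylalanine. Its levels were 1.10, 1.26, 1.96, 0.796 and 1.57% in control pools and 0.896, 1.10, 1.41, 3.52 and 2.24% in arsenic pools. The groups overlapped, with the highest value in arsenic pool 4.

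Known enhancers had a lower share, as had the 114 distal runs within 1 kb of a curated RefSeq start, of which 39 (34.2%) were at 10% or less. Of 220 distal runs inside an enhancer annotated in RefSeq, 64 (29.1%) were at 10% or less, and 50 of 203 (24.6%) without a CpG-island-like window. The 64 regions lay in 50 enhancers, 43 of them from the VISTA collection of elements tested in transgenic mouse embryos. Activity in brain or neural tube was recorded for 26 of the 43 (60.5%) and for 284 of all 617 autosomal VISTA enhancers in the annotation (46%). Limb was recorded for 13 (30.2% against 28.0%) and heart for 8 (18.6% against 25.8%). These enhancers were tested in somatic tissues of the embryo, so a low level in germ cells says nothing of activity there.

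Enhancers of pluripotency genes were among them, and were picked for their annotation after the values were seen. Prospermatogonia and the cells they come from share a set of pluripotency regulators with embryonic stem cells. The region at chr6:122764865-122765257, in an intron 14700 b downstream of the Slc2a3 start, lies in an element that drives the Nanog promoter in stem cell reporter assays. It had 20 CpGs and levels of 1.10, 1.65, 1.15, 1.42 and 0.851% in control and 2.53, 1.37, 0.680, 0.705 and 0.821% in arsenic pools. The region at chr6:122663016-122663166, 36263 b downstream of the start of Dppa3, a germ cell and oocyte protein, is in an element that drives the Nanog or Dppa3 promoter in such assays. It was more variable, at 4.15, 0.855, 5.78, 10.5 and 5.52% in control and 3.73, 4.79, 2.27, 2.27 and 1.76% in arsenic pools. Pools of both groups overlapped at both elements. Another element, near Med13l and able to drive a Pou5f1 promoter in stem cells, held the regions at chr5:118436729-118436912, with a mean of 9.15%, and chr5:118437016-118437189, with 5.79%.

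Other enhancers with several regions included a VISTA element 3′ of Btg2, an antiproliferative gene of neural precursors, with 3 regions at means of 0.391, 3.65 and 1.44%. A VISTA element by Hmga2, a chromatin protein of embryonic cells, had 3 regions at 1.40, 0.564 and 1.00%. An upstream Pax3 element at chr1:78203306-78203415 was at 0.895%, with 0, 0.277, 0.930, 0 and 1.59% in control and 0, 0.479, 1.69, 1.18 and 2.80% in arsenic pools.

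Developmental regulators were the nearest gene more often than among the other distal runs. A list of families of such genes (Hox, Pax, Sox, Fox, Lhx, Nkx, Wnt, Fgf and others) owned the nearest start for 149 regions (6.65%), against 0.876% of the other distal runs and 2.93% of promoter-proximal regions. The 149 belonged to 69 genes. Read the other way, 149 of the 674 distal runs nearest to a listed gene (22.1%) were unmethylated, and 92 of 605 (15.2%) where no CpG-island-like window was present. Counting protein-coding starts only, it was 302 regions of 114 genes (13.5% against 2.92%). The level of the 149 was lower than that of the rest, with medians of 2.08% and 3.11%, and they had a median of 9 CpGs. Of all 2242 regions, 1238 (55.2%) had none of a set of annotated features. The features were a CpG-island-like window, a RefSeq enhancer, a nearby tRNA gene, a RefSeq start within 1 kb, and a listed nearest protein-coding gene.

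**Figure D4:**
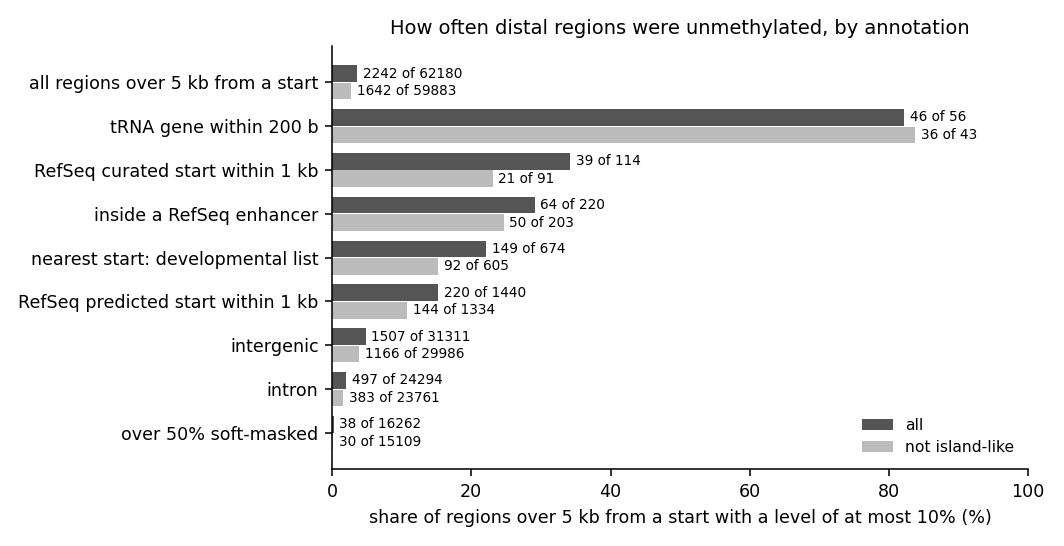
Share of regions over 5 kb from a start whose level was at most 10% (%, x axis), by annotation (y axis), for all such regions (dark bars) and for those without a CpG-island-like window (light bars), with counts beside the bars. Runs near tRNA genes stand at 82.1%, runs inside enhancers at 29.1% and runs nearest to a developmental gene at 22.1%, against 3.61% of all distal runs.

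Pax7, a regulator of muscle and neural crest precursors, had the most regions, 8 in all from 8559 to 36649 b from its start, at 0.974 to 9.80%. The one with most CpGs, chr4:139821646-139822170 in an intron, had 36 CpGs and levels of 0.576, 0.440, 0.688, 2.81 and 1.5% in control and 1.11, 2.07, 0.883, 1.53 and 1.60% in arsenic pools. Groups overlapped there. The most distant, chr4:139796056-139796358, was the highest, at 13.1, 9.84, 15.0, 9.72 and 18.1% in control and 2.64, 7.06, 7.77, 6.30 and 8.53% in arsenic pools. Every arsenic pool was below every control pool, and the adjusted p of limma over all regions was 0.653. The control mean was 13.1%, so this region met the rule of at most 10% only through its arsenic pools (mean 6.46%).

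Neurog2, a proneural gene, had 7 regions on both sides of its start, at 0.847 to 4.37%. Gbx2, a homeobox gene of the midbrain and hindbrain border, had 6 at 0.487 to 3.45%, of which the lowest was a coding exon 37247 b away with 25 CpGs. The locus with the most regions, 7 within chr5:139550128-139557718, lay 6230 to 13658 b downstream of the start of Uncx, a homeobox gene of the somites and kidney, at 2.86 to 8.77%. Uncx is not in the list of families. Other large regions by listed genes were chr19:59451083-59451993 (44 CpGs, Emx2), chr9:99868975-99869547 (37, Sox14), chr7:98815275-98815892 (35, Wnt11), chr13:98366493-98367148 (35, Foxd1) and chr11:21993739-21994287 (33, Otx1). Emx2, a cortical and urogenital homeobox gene, was the highest of these, at 3.82 to 7.88% in control and 3.08 to 6.82% in arsenic pools. Otx1, a forebrain homeobox gene, was at 0.878 to 1.99% and 1.14 to 1.84%. The Wnt11 region, by a secreted signal of the developing heart and kidney, also lay within 200 b of tRNA genes for proline, and its nearest RefSeq start was 239 b away.

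The other regions with most CpGs had varied surroundings. The first of them is by Neurog1, a listed gene, when only protein-coding starts are counted. The region at chr13:56221785-56222809, 53 CpGs in an exon 29354 b downstream of the start of Neurog1, had 2.52, 2.77, 1.62, 2.00 and 3.07% in control and 2.82, 1.74, 3.97, 3.69 and 3.27% in arsenic pools. A coding exon at chr8:84559191-84559440 of Cacna1a, a calcium channel gene, held 45 CpGs in 250 b and was at 0.729 to 2.26% in control and 0.253 to 1.17% in arsenic pools. The intronic region of Nfix, chr8:84784452-84785230 with 46 CpGs, was higher and more variable, at 4.37 to 11.8% and 3.19 to 9.08%. The coding exon at chr3:98427746-98428270 (53 CpGs, 28773 b from Gm4450) was at 0.636 to 1.72% and 0.353 to 1.22%. At chr17:6476343-6476970 (50 CpGs, 9321 b upstream of Tmem181b-ps) the pools were at 0.560 to 1.26% and 1.11 to 1.67%. Exact permutation p-values of the 6 regions with most CpGs, two-sided over 252 assignments, ran from 0.0317 for the last of these to 0.659, and their adjusted p over all regions from 0.729 to 0.936. None of the 6 therefore passed the threshold in the fit over all regions.

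Of a list of imprinted genes, 2 owned the nearest start of 5 regions, Dlk1 with 3 and Trappc9 with 2. Imprinted genes carry methylation on 1 parental copy, and in prospermatogonia the paternal pattern is being laid down. By Dlk1, a paternally expressed growth regulator, the regions chr12:109393848-109393955 and chr12:109446143-109446250 were at 3.55 to 11.8% and 4.74 to 10.9% in control pools. By Trappc9 the region chr15:73067781-73067991 was at 0.463 to 0.840% in control pools. Of a germ cell list only 1 region was nearest to a member when starts of all kinds were counted, chr2:172613912-172614349. It lies 61796 b downstream of the start of Tfap2c, a regulator of germ cell specification. It had 18 CpGs and was at 1.26 to 2.58% in control and 0.969 to 3.37% in arsenic pools. Among the other distal runs, 110 were nearest to a start of the germ cell list, 0.184% against 0.0446% of the unmethylated regions. With protein-coding starts only, the order was reversed. Then 14 unmethylated regions were nearest to 6 germ cell genes, 0.624% against 0.367% of the other distal runs. For the imprinted list that count gave 12 regions of 6 genes, 0.535% against 0.257%. These shares were not tested.

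The region farthest from any GENCODE start, 272704 b, was chr18:11351923-11352211, with 12 CpGs and levels of 0.337 to 1.10% in control pools. Next came chr2:178728645-178728762, 268015 b from Cdh26, with 3 CpGs and 7.55 to 13.2% in control pools, and chr8:108241300-108241631, in an intron 246741 b into Zfhx3, a homeobox zinc finger gene, with 16 CpGs. RefSeq starts lay nearer to the 3 regions, at 49684, 48007 and 37680 b in that order. Levels at Zfhx3 were 4.99, 5.31, 7.69, 8.25 and 7.44% in control and 11.9, 3.16, 5.27, 14.8 and 10.8% in arsenic pools. The groups overlapped, with arsenic pools both lowest and highest. The 3 deepest regions lay on chromosome 6. At chr6:47651144-47651539, which held a RefSeq start, coverage was 487 reads per CpG, and at chr6:47771864-47772027, 9597 b upstream of the Y RNA gene Rny3, it was 264. The levels there were 0.968 to 1.61% and 1.59 to 2.40% in control pools. The region chr6:114528809-114528922, 70290 b downstream of the start of the histamine receptor gene Hrh1, had 387 reads per CpG and was higher, at 5.43 to 8.64% in control and 3.67 to 8.20% in arsenic pools. Of mostly soft-masked regions, chr1:164224391-164224561 was 100% repeat and varied from 1.06 to 20.4% in control and 0.509 to 14.5% in arsenic pools. The intronic region chr6:128800024-128800079 by Klrb1c, 96.4% repeat, was at 3.57 to 11.2% and 2.96 to 16.0%.

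Near the threshold, chr1:89308896-89309004 in an intron 49140 b downstream of the start of Gm28342 was just inside, with a mean of 9.95%, and chr5:120024160-120024280 and chr4:120698048-120698126 were just outside, at just over 10%. Pools differed widely there, from 2.11 to 21.1% at the region by Gm28342, so such regions are not a class apart from those left out.

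A few regions were low in most pools and high in 1 or 2. A coding exon of Asb16 at chr11:102276722-102276790 was at 0, 2.35, 0, 0 and 40% in control pools and at 0 in every arsenic pool, with 40 reads in the high pool. A region 5095 b upstream of Neurog2 at chr3:127628002-127628040 was at 0, 0, 4.88, 34.6 and 0% in control pools, with 52 reads in the high one. A coding exon of Scrt2 at chr2:152093473-152093550 reached 31.0% in control pool 3 and 16.0% in arsenic pool 3, with 420 and 212 reads. These 3 were named for the largest SD among control pools. Over the 2242 regions the median SD was 1.66 points among control and 1.56 among arsenic pools, against 0.820 and 0.795 in promoter-proximal regions and 5.24 and 5.80 in the other distal runs.

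The comparison of the arsenic with the control group asks whether maternal arsenite changed methylation in fetal germ cells. It was fitted by limma across all 119729 regions on log2 ratios (methylated over unmethylated reads of a region), and the level that chose the regions is the mean over both groups, which does not fix the direction. No region passed an adjusted p of 0.05: 0 of 2242 were called, and 0% of all regions were (smallest adjusted p 0.653 by limma with Benjamini-Hochberg adjustment). At an unadjusted p under 0.05, 81 of the 2242 (3.61%) were higher in arsenic, against 2.25% of all regions, and 63 (2.81%) were lower, against 5.14% of all regions. The promoter-proximal regions had 3.73% higher and 1.71% lower, and the other distal runs 1.84% and 6.19%. The shares were not tested against each other. With a fixed prior count of 1 the 2 counts were 66 higher and 75 lower, so their order depended on scaling the prior to coverage. The other alternative fits kept more higher than lower, from 91 and 51 without control pool 4 to 60 and 59 without arsenic pool 4. With a scaled prior of 0.5 the counts were 77 and 57, and with a quasi-binomial test 74 and 62.

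Differences were small. The median difference over the 2242 regions was 0.0383 points (quartiles -0.715 and 0.776), 1171 (52.2%) were higher in the arsenic group, and 44 (1.96%) differed by 5 points or more. In all regions the median was -0.419 points and 42.2% were higher. There 22.6% differed by 5 points or more, and 28.4% of the other distal runs did. Because the level rule bounds the differences, the smaller share among the 2242 does not show a weaker effect of arsenic. On the log2 ratio scale the medians were 0.0636 in the 2242 and -0.0704 in all regions. Groups did not overlap in 7 regions with arsenic higher (0.312%, against 0.323% of all regions) and in 15 with arsenic lower (0.669%, against 1% of all regions), so these shares were near or under the background. The gaps between groups in the 22 regions were 0.0133 to 3.41 points. Some of the 15 had a control mean over 10%, up to 14.7%, and met the level rule only through their arsenic pools. By Fgl2, with arsenic higher, the arsenic mean was 10.8%.

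By kind of region, the counts at an unadjusted p under 0.05 are set beside 2.25% higher and 5.14% lower over all regions. They were not tested against those shares. Of the 149 by developmental genes, 4 were higher and 1 lower at an unadjusted p under 0.05, with group means of 2.73% ± 0.241 in control and 2.88% ± 0.335 in arsenic pools (SD, n = 5 each). Of the 64 in enhancers, 4 were higher and 2 lower, with 3.43% ± 0.124 and 3.6% ± 0.246. Of the 46 by tRNA genes, 1 was higher and 0 lower, with 2.66% ± 0.307 and 2.66% ± 0.232. All 3 differences were smaller than the larger SD.

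Of the regions with small p, 5 are given as values, since that p chose them. With arsenic lower, the region chr17:85485419-85485511, 13122 b upstream of Rpl31-ps16 and 128097 b from Six3, an eye and forebrain homeobox gene, was at 2.36, 1.84, 2.15, 1.91 and 2.43% in control and 0.628, 0, 0.273, 0 and 0.781% in arsenic pools. The groups were apart, by 1.06 points. The other was chr8:26273587-26273724, 6610 b downstream of Gm31727, at 14.5, 24.3, 10.1, 10.5 and 14.3% in control and 6.52, 4.26, 4.42, 7.84 and 2.65% in arsenic pools. Its highest arsenic pool was 2.20 points under the lowest control pool. Every control pool was over 10% (mean 14.7%), so this region met the level rule only through its arsenic pools (mean 5.14%).

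With arsenic higher, chr12:118661201-118661239 (3 CpGs, 58524 b downstream of Gm9267) was at 0, 0, 0, 0 and 1.37% in control and 2.04, 5.36, 2.04, 2.56 and 2.56% in arsenic pools. With 33 to 98 reads a pool, such levels rest on few methylated reads. The Btg2 enhancer region chr1:134063657-134063711 was at 0, 0, 0.794, 0 and 1.08% in control and 4.51, 1.75, 1.74, 2.86 and 1.70% in arsenic pools, with 65 to 126 reads. Its neighbours in the same enhancer did not share this: chr1:134063021-134063526 had 2.03 to 4.56% in control and 2.60 to 5.27% in arsenic pools, and chr1:134061063-134061246 had 0 in 4 control and 3 arsenic pools. The third, chr7:16295594-16295710 by Ccdc9, was at 1.21, 0, 0, 0.575 and 0.763% in control and 2.60, 1.90, 3.93, 6.92 and 0.879% in arsenic pools, which overlap. Each of these 5 regions had an adjusted p of 0.653.

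**Figure D5:**
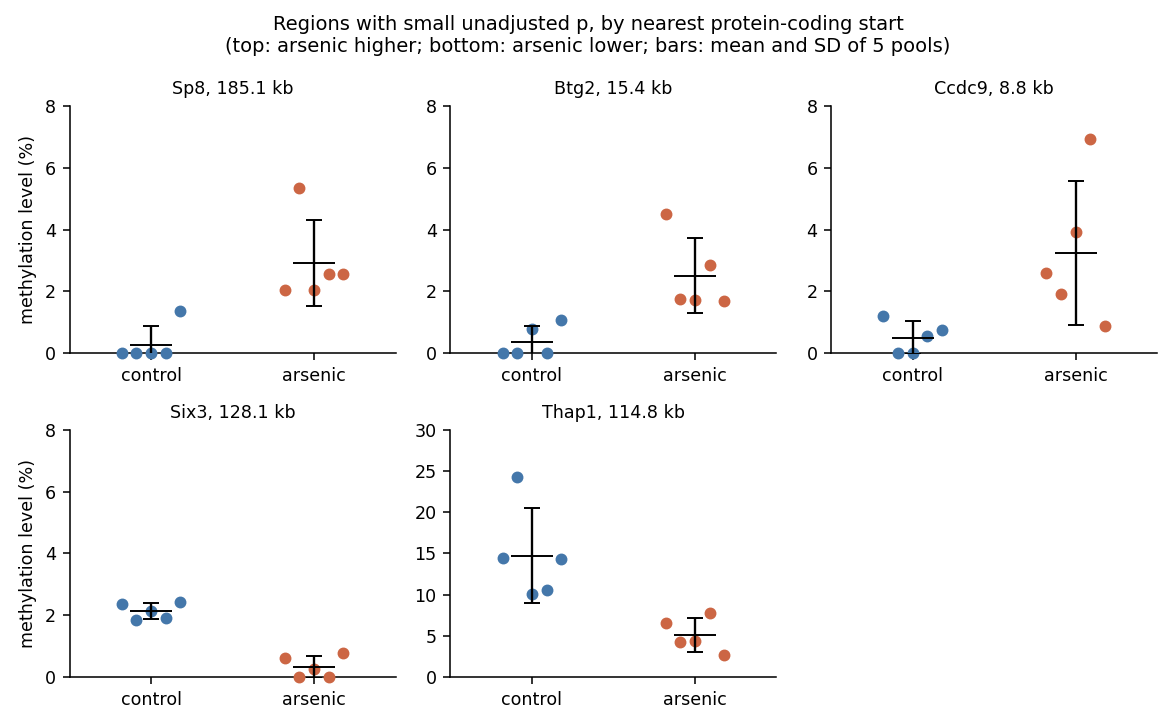
Methylation level (%, y axis, scales differ between panels) in each control and arsenic pool (points), with mean and SD of 5 pools, at 5 unmethylated distal regions with a small unadjusted p (3 with arsenic higher in the top row, 2 with arsenic lower), titled by the nearest protein-coding start and its distance. In 4 panels the groups do not overlap, and in the Ccdc9 panel they do. The Thap1 panel is chr8:26273587-26273724, whose control mean is 14.7%.

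By Olig3, a gene of spinal cord precursors, the 3 regions were looked at after the values were seen. At chr10:19361801-19361933, 5268 b downstream of its start, levels were 4.22, 1.22, 7.75, 0 and 1.66% in control and 3.93, 10.7, 12.4, 9.73 and 15.6% in arsenic pools (adjusted p 0.653 by limma). The groups overlap through arsenic pool 1 alone among the arsenic pools. At chr10:19362370-19362460 they were 0 to 6.15% and 0 to 8.20%, and at chr10:19362992-19363066 0 to 5.14% and 0 to 2.86%.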

How the data were processed

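RRBS libraries of 5 control and 5 arsenic pools of prospermatogonia were analysed, grouped by their titles. The authors trimmed reads with Trim Galore (0.6.5), mapped them to mm10 with Bismark (0.22.3) and joined the calls with methylKit (1.22.0), per the methods and the submitters' notes. The deposited table holds raw counts of reads, methylated reads and unmethylated reads for 1349101 CpG cytosines, each with a coverage of at least 10 in all 10 samples. Duplicate handling was not given in the sources used here. Bases in which C3H differs from the reference were not called here, so a C-to-T difference would be read as an unmethylated C.

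Strands were summed at 1033679 CpGs of chromosomes 1 to 19, X and Y, and CpGs at most 100 b apart were joined into 119729 regions. A region's level in a sample is its methylated reads over its reads, in percent. Groups were compared with limma (3.58.1, R 4.3.3) on log2 ratios with a prior count of 1 scaled to coverage, an intensity trend in the variance prior and Benjamini-Hochberg adjustment over all regions; the trend was chosen on simulated data. Single regions were also compared by exact permutation over 252 assignments. Starts and gene parts came from GENCODE M21, and RefSeq starts, tRNA genes and enhancers from the GRCm38.p6 annotation.

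The regions, gene lists and naming rules were chosen with earlier results of these data known. Named were the 6 regions with most CpGs, the 3 of smallest p in each direction, the 3 of largest control SD, the 3 farthest from a start, up to 6 by listed developmental genes and 3 each by imprinted and germ cell genes, the 2 on each side of the threshold, the 3 deepest and the 3 most soft-masked, at most 1 per 5 kb. Of these, 1 region of small p with arsenic lower and 1 near the threshold are not reported here. Enhancers, genes or loci with most regions, and Olig3 were named after their values were seen. P-values measure the spread between pools. Python 3.11.15, numpy 2.4.6, scipy 1.17.1 and pandas 2.3.3 were used.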

Additional observations from a re-analysis of the deposited data

Results flagged for a closer look

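In 96 groups of 5 pools, over 44 named regions and 4 means or counts over all regions, 19 had a pool whose gap to the next was over 0.71 of the group's range. About 5 would be flagged by chance if the values were normally distributed. Levels at some of these regions pile up at 0, where 1 pool with any methylated read is flagged. The 19 are therefore no measure of an excess over chance. Of the 19, 5 were at the 3 regions named for the largest control SD. In the control group the highest pool stood apart at the Asb16 exon (40%), the Neurog2 region chr3:127628002-127628040 (34.6%), the Scrt2 exon (31.0%) and chr2:178728645-178728762 by Cdh26 (13.2%). The same held at the Dlk1 region chr12:109446143-109446250 (10.9%), the Sox14 region (6.15%), the Wnt11 region (3.26%) and the Hmga2 enhancer region chr10:120552307-120552370 (1.76%). It also held at chr12:118661201-118661239 (1.37%) and the Btg2 enhancer region chr1:134061063-134061246 (0.917%).

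In the arsenic group the highest pool stood apart at the Scrt2 exon (16.0%), the soft-masked region by Slc19a2 (14.5%), the soft-masked region chr13:51401090-51401129, in an intron 7510 b upstream of S1pr3, (9.80%) and chr12:118661201-118661239 (5.36%). So it did at chr18:11351923-11352211 (4.87%), chr3:127628002-127628040 by Neurog2 (4.24%), the Trappc9 region (2.54%) and the Otx1 region (1.84%). The lowest pool stood apart at chr10:120553009-120553326 in the Hmga2 enhancer, with 0 methylated reads.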

How the results depend on the processing

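The number of regions depended on the definition. It was 3448 with a level of at most 20%, 3503 over 2 kb from a start, 1417 over 10 kb and 1397 where only CpGs with a coverage of at least 20 were used. Under the other settings it was 1543 to 2780, the latter with the basic GENCODE set, an alternative added after seeing the data. Over 5 kb from both GENCODE and RefSeq starts, also added later, it was 1753. The mean level differed between the groups by -0.0691 to 0.0929 points when each pool was left out in turn, and by -0.0017 to 0.143 points under the other settings. In all 17 alternative fits 0 regions were called. The counts at an unadjusted p under 0.05 stayed within 1.5 times of those reported, at 60 to 91 higher and 51 to 71 lower when each pool was left out, and at 103 higher and 77 lower without the trend (added later). With the replicate block they were 82 higher and 55 lower. Same-numbered pools of the 2 groups had correlations of deviations from -0.0327 to 0.0641, and 1 of 5 correlated best with its own number. The labels do not say whether same-numbered pools were handled together, and these correlations cannot decide it. Leaving out a pool gave 15 to 29 regions without overlap with arsenic higher (29 without arsenic pool 1) and 20 to 29 with arsenic lower, since fewer pools make separation easier to reach. The 3 regions of smallest p in each direction kept their direction in all 90 refits, with an adjusted p of 0.505 to 0.804 by limma. They were chosen by p in these same pools, so the kept direction could hardly come out otherwise and is no support for a difference.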
